A study of Mus musculus with 8 samples.

Results

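Described here are 10 genes that cut and rebuild membrane phospholipids in tumours of B16F10 cells, an established mouse melanoma line. One group of host mice ate a high cholesterol diet (HCD) and the other a normal diet (ND). The 10 genes are 5 phospholipase A2 genes (Pla2g6, Pla2g4a, Pla2g12a, Pla2g15 and Pla2g7) and 5 lysophospholipid acyltransferase genes (Lpcat1, Lpcat2, Lpcat3, Lpcat4 and Mboat7), 10 of the 34745 genes in the count files. The group was chosen by gene family around Pla2g6, which was selected on its difference between the diets in these same libraries, so the diet differences of these genes are a description and not a test. All 10 were found by symbol, and all 10 passed the filter on low counts.

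RNA-seq was done on 8 tumour samples, 4 from HCD mice (HCD 1 to HCD 4) and 4 from ND mice (ND 1 to ND 4). In both groups B16F10 cells had been grown in DMEM with FBS and then injected subcutaneously into mice of the C57BL/6J strain. The labels give no age, diet composition or feeding time, and all 8 titles carry the same dataset number. Nor do they tie each tumour to its own mouse, so a p given here reflects the scatter of these samples and that scatter may be technical.

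Phospholipases A2 free a fatty acid, often arachidonate, from the middle position of a membrane phospholipid and leave a lysophospholipid. Acyltransferases put a fatty acid back, and this exchange, the Lands cycle, sets how unsaturated a membrane is. The freed fatty acid and the lysophospholipid are also raw material for eicosanoids, platelet-activating factor and lysophosphatidic acid, which tumour cells and macrophages both make.

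In HCD tumours Pla2g6 transcripts were higher in every library than in any ND library, by a ratio of 1.35 on average, and Pla2g15 transcripts were also higher without overlap, by 1.41 times. Pla2g4a averaged 1.498 times the ND level with the groups overlapping in 1 pair of libraries. The secreted enzyme gene Pla2g12a averaged 0.764 times the ND level with overlap. The 5 acyltransferase genes lay between 0.888 and 1.04 times the ND level, and all of them overlapped between diets. Of the 10 genes, 1 (Pla2g6) was called higher in HCD and 0 lower by edgeR's quasi-likelihood test at an adjusted p under 0.05, where the same test called 0.0683% of 13186 genes higher and 0.114% lower. That count was 0 in each fit with 1 library left out, with the replicate number as a block and with a term for ND 2, ND 3 and ND 4. DESeq2 called Pla2g6 alone, as 1 higher and 0 lower, where it called 1.53% of the genes it tested higher and 1.88% lower. So did limma-voom, which called 0.0607% of all genes higher and 0.0834% lower. Groups did not overlap for 2 of the 10 genes higher and 0 lower in HCD, against 4.94% of all tested genes higher and 4.73% lower. At an unadjusted p under 0.05, 3 were higher and 1 lower, against 14.7% of all tested genes in either direction. The median log2 fold change of the 10 was 0.03 (0.43 for the phospholipases and -0.13 for the acyltransferases), against 0.00 over all genes tested. With 1 library left out the median of the 10 ran from -0.06 to 0.06, and it was below 0 without HCD 3, ND 2 or ND 4. Since the group was chosen from this contrast, these counts are read no further.

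**Figure D1:**
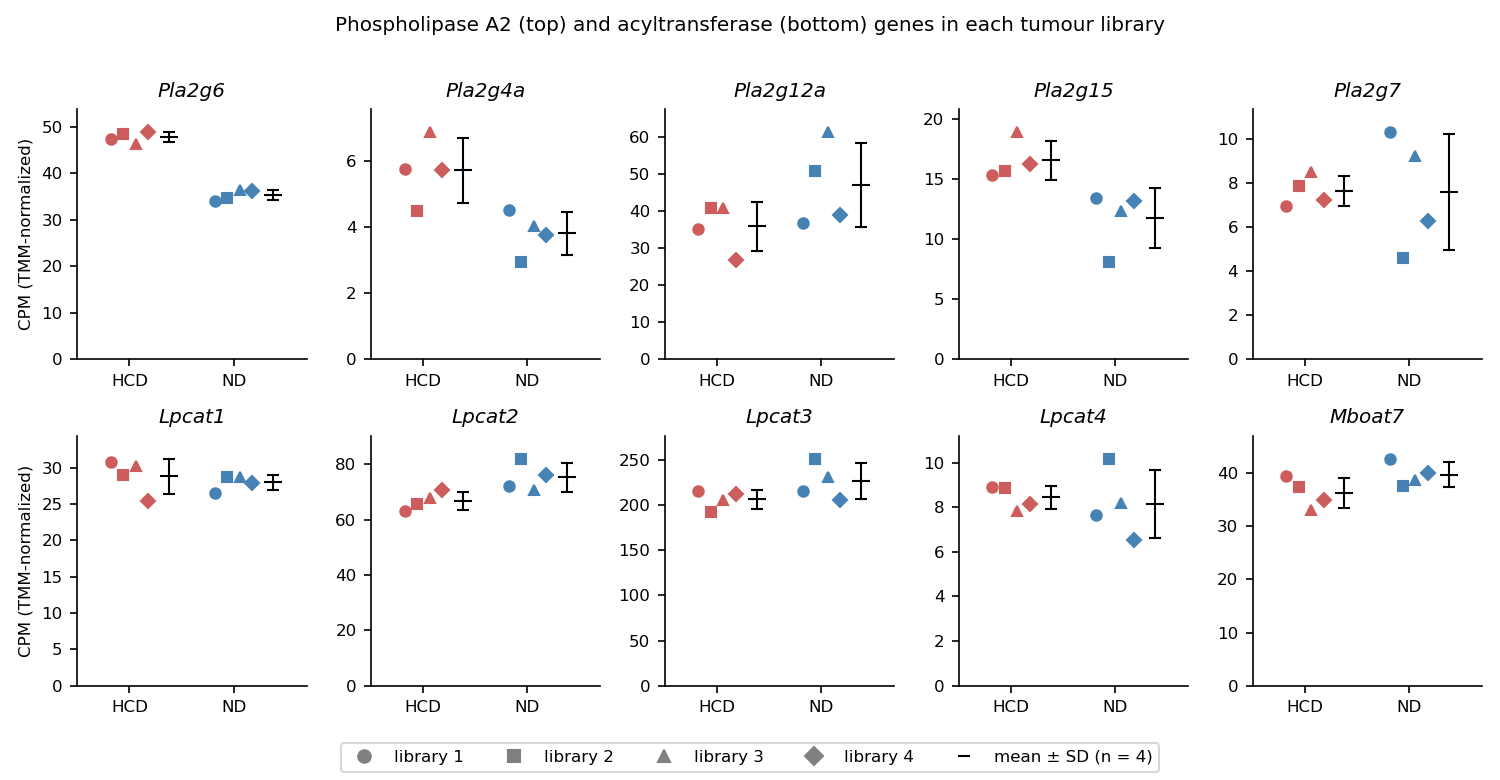
Normalized level (CPM, normalized read counts scaled to library size by TMM, axis from 0) of each of the 10 genes in each library, with HCD libraries left of ND libraries and the mean ± SD (n = 4) beside them. The 4 HCD points of Pla2g6 lie at 46.4 to 48.9 CPM, above the ND points at 34.1 to 36.4 CPM, while the points of Pla2g7 and of the acyltransferase genes overlap. No label says that a shared library number pairs HCD and ND samples.

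Total counts per library ran from 14599222 to 17722093. Levels are given as CPM, read counts scaled to library size with TMM factors. Genes with at least 1 count numbered 16285 to 16728 in the HCD libraries, 16745 in ND 1 and 18088 to 18224 in ND 2 to ND 4 (p = 0.0286 by an exact two-sided permutation test, the lowest value that groups of 4 can give). A fit in which ND 2, ND 3 and ND 4 had a term of their own (the ND 2-4 term) is therefore given for the 10 genes wherever it moves a log2 fold change by over 1.5 times. In it the diets are compared through ND 1 alone. The 6 melanocyte markers, among them Pmel and Tyr, were detected in every library and summed to 25490 to 29640 CPM in HCD and 28000 to 29360 CPM in ND, as the B16F10 label calls for. In such bulk samples fewer cells of a type and less RNA per cell cannot be told apart.

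Pla2g6 encodes the calcium-independent group VI enzyme that acts inside cells on many phospholipids. The gene (ENSMUSG00000042632) spans chr15:79286228-79328390 on the minus strand of GRCm38, the mouse assembly also called mm10, and shares no exon position with another annotated gene. It had 47.5, 48.4, 46.4 and 48.9 CPM in HCD 1 to HCD 4, against 34.1, 34.7, 36.4 and 36.3 CPM in ND 1 to ND 4. The lowest HCD library was above the highest ND library, and within each diet the libraries lay close together. Group means were 47.8 ± 1.09 CPM in HCD and 35.4 ± 1.17 CPM in ND (SD, n = 4 each), a log2 fold change of 0.43 (SE 0.0674, 95% interval 0.29 to 0.58, edgeR adjusted p = 0.0459 over all genes). Raw counts were 792 to 862 in HCD and 523 to 596 in ND. The call was lost when any 1 library was left out (adjusted p from 0.0718 without ND 2 to 0.138 without HCD 4), with the replicate number as a block (0.206) and with the ND 2-4 term (0.339). Over 17 alternative fits the edgeR, DESeq2 or limma adjusted p ran from 6.16e-05 to 0.339. The log2 fold change ran from 0.42 to 0.49 over the same fits.

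Pla2g6 had the smallest relative spread of the 10 genes within each diet. It was selected on its difference between these same groups, which favours a gene with a small spread here. Its coefficient of variation between libraries, which includes counting noise, was 2.27% in HCD and 3.3% in ND. At its raw counts (792 to 862 in HCD, 523 to 596 in ND) counting noise alone would give at least as much. So no spread between samples beyond counting noise was visible for Pla2g6 within either diet. Its biological coefficient of variation within diets was 9.11% and lay at percentile 4.70 of all tested genes. That value is the fit's estimate of spread beyond counting noise. It is larger than the coefficient of variation observed, so it is drawn largely from other genes and is not a spread observed directly. The log2 fold changes of Pla2g15 (0.49) and Pla2g4a (0.58) were larger with wider spreads. No test of these differences between genes was made.

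Pla2g15 encodes a phospholipase A2 of the lysosome, where it degrades phospholipids at acid pH. The gene (ENSMUSG00000031903, chr8:106150399-106164715, plus strand) had 15.35, 15.7, 18.9 and 16.3 CPM in HCD 1 to HCD 4, against 13.4, 8.14, 12.35 and 13.2 CPM in ND 1 to ND 4. The groups did not overlap, though HCD 1 and ND 1 lay close, with HCD 3 the highest and ND 2 the lowest. Means were 16.6 ± 1.62 CPM in HCD and 11.8 ± 2.47 CPM in ND, a log2 fold change of 0.49 (SE 0.161, 95% interval 0.13 to 0.85, edgeR adjusted p = 0.207), which was 0.30 with the ND 2-4 term.

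Pla2g4a encodes the cytosolic, calcium-activated enzyme that is selective for arachidonate and starts eicosanoid synthesis in many cells. The gene (ENSMUSG00000056220, chr1:149829618-149961290, minus strand) had 5.76, 4.48, 6.865 and 5.73 CPM in HCD 1 to HCD 4, against 4.52, 2.95, 4.01 and 3.75 CPM in ND 1 to ND 4. HCD 2 lay just under ND 1, and the 3 other HCD libraries were above every ND library. In FPKM, which use the plain library total, HCD 2 (0.601 FPKM) lay just above ND 1 (0.589 FPKM) and the groups did not overlap. Means were 5.71 ± 0.973 CPM in HCD and 3.81 ± 0.654 CPM in ND, a log2 fold change of 0.58 (SE 0.196, 95% interval 0.15 to 1.02, edgeR adjusted p = 0.214), which was 0.34 with the term. These values rest on 49 to 119 counts per library, the fewest of the 10 genes.

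Pla2g12a encodes a secreted group XII phospholipase A2 with weak activity on common phospholipids. The gene (ENSMUSG00000027999, chr3:129878606-129895825, plus strand) had 35.1, 40.95, 40.8 and 26.9 CPM in HCD 1 to HCD 4, against 36.9, 50.9, 61.4 and 39.0 CPM in ND 1 to ND 4. ND 2 and ND 3 were above all HCD libraries, and ND 1 and ND 4 lay within the HCD range. Means were 35.9 ± 6.61 CPM in HCD and 47.0 ± 11.4 CPM in ND, a log2 fold change of -0.39 (SE 0.182, 95% interval -0.79 to 0.01, edgeR adjusted p = 0.361). With the ND 2-4 term it was -0.04.

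Pla2g7 encodes the lipoprotein-associated enzyme that inactivates platelet-activating factor and is made largely by macrophages. The gene (ENSMUSG00000023913, chr17:43568098-43612201, plus strand) had 6.96, 7.88, 8.48 and 7.21 CPM in HCD 1 to HCD 4, against 10.3, 4.58, 9.20 and 6.25 CPM in ND 1 to ND 4. The ND libraries enclosed all HCD libraries, with ND 1 the highest and ND 2 the lowest. Means were 7.63 ± 0.688 CPM in HCD and 7.58 ± 2.63 CPM in ND, a log2 fold change of 0.01 whose 95% interval, -0.52 to 0.53, covers changes in both directions (edgeR adjusted p = 0.994), and which was -0.43 with the ND 2-4 term. Its biological coefficient of variation within diets, 23.7%, was the largest of the 10.

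Lpcat3, the most abundant of the 10 genes, puts polyunsaturated chains into phosphatidylcholine and phosphatidylethanolamine and is a known target of LXR, the nuclear receptors for oxysterols. The gene (ENSMUSG00000004270, chr6:124663027-124704418, plus strand) had 215.7, 192.2, 206.2 and 212.6 CPM in HCD 1 to HCD 4, against 215.8, 252.0, 231.9 and 206.4 CPM in ND 1 to ND 4. The 2 highest libraries were ND 2 and ND 3, and the lowest was HCD 2. Means were 207 ± 10.4 CPM in HCD and 227 ± 19.99 CPM in ND (log2 fold change -0.13, SE 0.0752, 95% interval -0.30 to 0.03, edgeR adjusted p = 0.462), and -0.06 with the term. Of its exon positions, 10.2% are shared with Emg1 on the opposite strand. Whether the counting used strand is unknown here, and reads from the overlap may belong to either gene.

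Lpcat2 rebuilds phosphatidylcholine and can also make platelet-activating factor, chiefly in inflammatory cells. The gene (ENSMUSG00000033192, chr8:92855339-92919279, plus strand) had 63.1, 65.7, 67.8 and 70.52 CPM in HCD 1 to HCD 4, against 72.3, 82.0, 70.50 and 75.9 CPM in ND 1 to ND 4. HCD 4 lay just above ND 3, the only pair of libraries in which the groups overlapped. Means were 66.8 ± 3.16 CPM in HCD and 75.2 ± 5.10 CPM in ND, a log2 fold change of -0.17 (SE 0.0733, 95% interval -0.33 to -0.01, edgeR adjusted p = 0.317). It was -0.11 with the ND 2-4 term.

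Lpcat1, which makes disaturated phosphatidylcholine and is best known from lung surfactant, had 25.4 to 30.7 CPM in HCD and 26.55 to 28.7 CPM in ND. HCD 4 was the lowest library and HCD 1 the highest, so the HCD range enclosed the ND range (ENSMUSG00000021608, chr13:73467197-73516422; log2 fold change 0.04, 95% interval -0.15 to 0.24, edgeR adjusted p = 0.865, and 0.12 with the term). Lpcat4, which acts mainly on lysophosphatidylethanolamine, had 7.85 to 8.93 CPM in HCD and 6.52 to 10.2 CPM in ND, and here the ND range enclosed the HCD range (ENSMUSG00000027134, chr2:112239468-112247111; log2 fold change 0.05, 95% interval -0.29 to 0.39, edgeR adjusted p = 0.918, and 0.14 with the term). Mboat7, which puts arachidonate into phosphatidylinositol, had 39.6, 37.5, 33.2 and 35.1 CPM in HCD 1 to HCD 4, against 42.8, 37.55, 38.65 and 40.1 CPM in ND 1 to ND 4. HCD 2 lay just under the lowest ND library, HCD 3 and HCD 4 lay further below it, and HCD 1 was within the ND range (ENSMUSG00000035596, chr7:3677789-3693523; log2 fold change -0.13, 95% interval -0.32 to 0.05, edgeR adjusted p = 0.519, and -0.24 with the term). Mboat7 shares 3.32% of its exon positions with Tsen34 on the opposite strand.

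**Figure D2:**
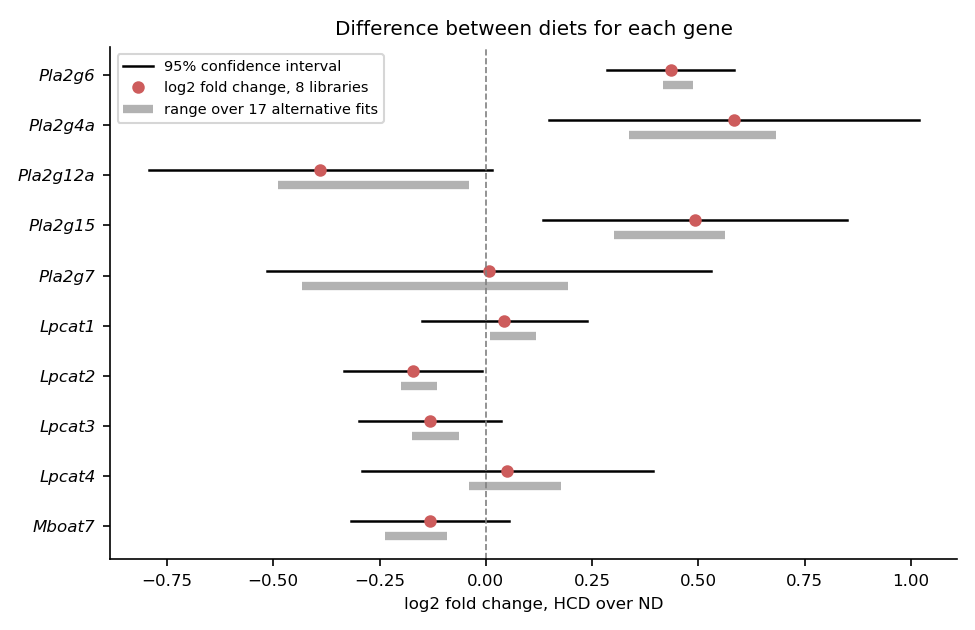
Log2 fold change of each gene (HCD over ND, points) with its 95% confidence interval (black lines) and, below each, the range over 17 alternative fits (grey bars). The intervals of Pla2g6 (0.29 to 0.58), Pla2g15 (0.13 to 0.85), Pla2g4a (0.15 to 1.02) and Lpcat2 (-0.33 to -0.01) do not cross 0, and the grey bars of Pla2g7 and Lpcat4 cross it.

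The 3 phospholipase genes with the highest HCD over ND ratios, Pla2g4a, Pla2g15 and Pla2g6, are shown with the DNA at their annotated start, so that these stretches can be set beside their levels. The sequences are the 300-base promoter windows of RefSeq on GRCm38.p6, read 5′ to 3′ on the gene's strand, at chr15:79328322-79328621 (minus strand) for Pla2g6, chr8:106150104-106150403 (plus strand) for Pla2g15 and chr1:149961241-149961540 (minus strand, the upstream one of its 2 windows) for Pla2g4a. Capitals mark matches, on either strand, to the E-box form CATGTG, the E-box form CACGTG, the CCAAT box, the TATA box (TATAAA) and the GC box (GGGCGG). Where matches overlap the capitals run on.
Pla2g6: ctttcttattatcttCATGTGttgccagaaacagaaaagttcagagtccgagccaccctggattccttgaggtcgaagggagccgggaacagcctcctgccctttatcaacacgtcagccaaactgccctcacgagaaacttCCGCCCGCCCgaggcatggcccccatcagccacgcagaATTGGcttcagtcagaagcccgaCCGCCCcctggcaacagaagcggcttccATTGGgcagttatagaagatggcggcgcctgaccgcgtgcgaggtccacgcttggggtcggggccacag
Pla2g15: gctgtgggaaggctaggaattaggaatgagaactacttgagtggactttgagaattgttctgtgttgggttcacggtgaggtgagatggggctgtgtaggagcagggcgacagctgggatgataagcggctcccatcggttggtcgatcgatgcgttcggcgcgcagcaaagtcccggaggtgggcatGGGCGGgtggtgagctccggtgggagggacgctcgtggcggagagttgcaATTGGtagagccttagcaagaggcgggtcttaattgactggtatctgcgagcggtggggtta
Pla2g4a: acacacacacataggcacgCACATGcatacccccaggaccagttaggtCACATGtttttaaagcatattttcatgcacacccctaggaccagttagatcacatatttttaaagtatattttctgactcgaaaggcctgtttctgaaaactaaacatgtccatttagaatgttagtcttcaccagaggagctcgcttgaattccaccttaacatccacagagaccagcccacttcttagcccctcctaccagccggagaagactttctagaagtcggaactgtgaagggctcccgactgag
The Pla2g6 window held 1 CATGTG, 2 CCAAT and 3 GGGCGG matches, 2 of which overlap. The Pla2g15 window held 1 CCAAT and 1 GGGCGG match, and the Pla2g4a window shown held 2 CATGTG matches and none of the others. The other Pla2g4a window, at chr1:149922390-149922689, held 1 CCAAT and 1 TATAAA match and none of the others, at a GC content of 41.0%. Of all 32851 promoter windows in the table, 14.15% held CATGTG, 7.15% CACGTG, 37.41% CCAAT, 13.62% TATAAA and 35.66% GGGCGG. The GC content of the windows was 59.0% for Pla2g6, 57.7% for Pla2g15 and 45.3% for the Pla2g4a window shown, against a median of 52.7% over all windows. All 10 genes had an entry. Across the acyltransferase windows GC content ran from 54.7% (Lpcat2) to 79.0% (Lpcat4), and the Lpcat3 window held 4 CCAAT and 6 GGGCGG matches, the most of the 10 genes. A match is a stretch of letters and not an observed binding site.

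Levels of different genes were compared per length with the deposited FPKM, in which counts are scaled to gene length and library total. Lpcat3 averaged 35.3 FPKM over the 8 libraries and Lpcat2 18.8 FPKM, and Pla2g12a was the leading phospholipase at 8.002 FPKM. Pla2g6 (5.46 FPKM), Pla2g15 (5.25 FPKM) and Lpcat1 (5.13 FPKM) followed within each other's range. Lpcat4 (2.12 FPKM), Mboat7 (2.08 FPKM) and Pla2g7 (1.99 FPKM) formed another overlapping run, and Pla2g4a was lowest at 0.627 FPKM. Neighbours in this order had ranges that did not overlap at 4 steps, from Lpcat3 to Lpcat2, from Lpcat2 to Pla2g12a, from Lpcat1 to Lpcat4 and from Pla2g7 to Pla2g4a. The gene length behind the FPKM was within 1% of the sum of all distinct exons, with overlapping exons of different isoforms each counted, for 72.3% of 22696 genes compared. It was 2.19 times the exon union for Mboat7 and 1.88 times for Lpcat3, but 0.897 times for Pla2g15, the only one of the 10 with a length below its union. Per kilobase of exon union the levels were 66.3 CPM per kb for Lpcat3, 20.95 for Lpcat2, 11.3 for Pla2g12a and 7.65 for Pla2g6. The same measure gave 6.13 CPM per kb for Lpcat1, 4.70 for Pla2g15, 4.56 for Mboat7, 2.94 for Lpcat4, 2.62 for Pla2g7 and 0.745 for Pla2g4a. On this measure 4 genes took another rank, as Lpcat1 passed Pla2g15 and Mboat7 passed Lpcat4.

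**Figure D3:**
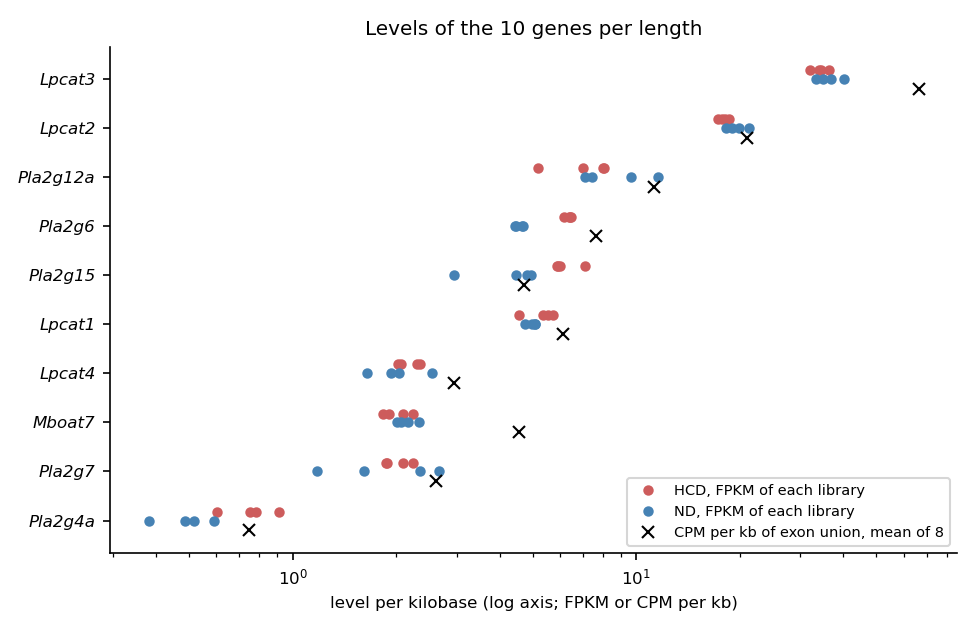
Level of each gene per length on a log axis, ordered by mean FPKM, with HCD libraries drawn above ND libraries and crosses for the mean CPM per kilobase of exon union over 8 libraries. Lpcat3 (35.3 FPKM) lies at the top and Pla2g4a (0.627 FPKM) at the bottom, and the cross of Mboat7 lies well to the right of its FPKM points.

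The summed level of the 5 phospholipase genes was 27.6 ± 2.13 CPM per kb in HCD and 26.4 ± 3.26 CPM per kb in ND (SD, n = 4 each). Pla2g6 made up 32.8, 31.1, 28.6 and 35.9% of that sum in HCD 1 to HCD 4, against 25.1, 25.6, 21.4 and 27.4% in ND 1 to ND 4. Pla2g12a made up 35.7, 38.8, 37.05 and 29.1% in HCD 1 to HCD 4, against 40.1, 55.4, 53.3 and 43.4% in ND 1 to ND 4. For both genes the groups did not overlap, Pla2g6 being the higher share in HCD and Pla2g12a the lower. The share of Pla2g15 was also higher without overlap, at 18.2 to 21.5% in HCD and 10.8 to 17.95% in ND. Shares of 1 sum are tied, so a higher share of 1 gene lowers the others, and the CPM of Pla2g12a itself overlapped between diets. These shares have no counterpart over all genes and carry no test. Pla2g4a took 2.45 to 3.59% in HCD and 1.85 to 2.83% in ND, and Pla2g7 8.98 to 9.89% in HCD and 6.32 to 14.2% in ND, both overlapping. Among the acyltransferases Lpcat3 held 65.5 ± 1.18% of the sum in HCD and 65.8 ± 1.45% in ND, and all 5 shares overlapped. Their sum was 96.5 ± 3.18 CPM per kb in HCD and 105.2 ± 7.51 CPM per kb in ND.

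**Figure D4:**
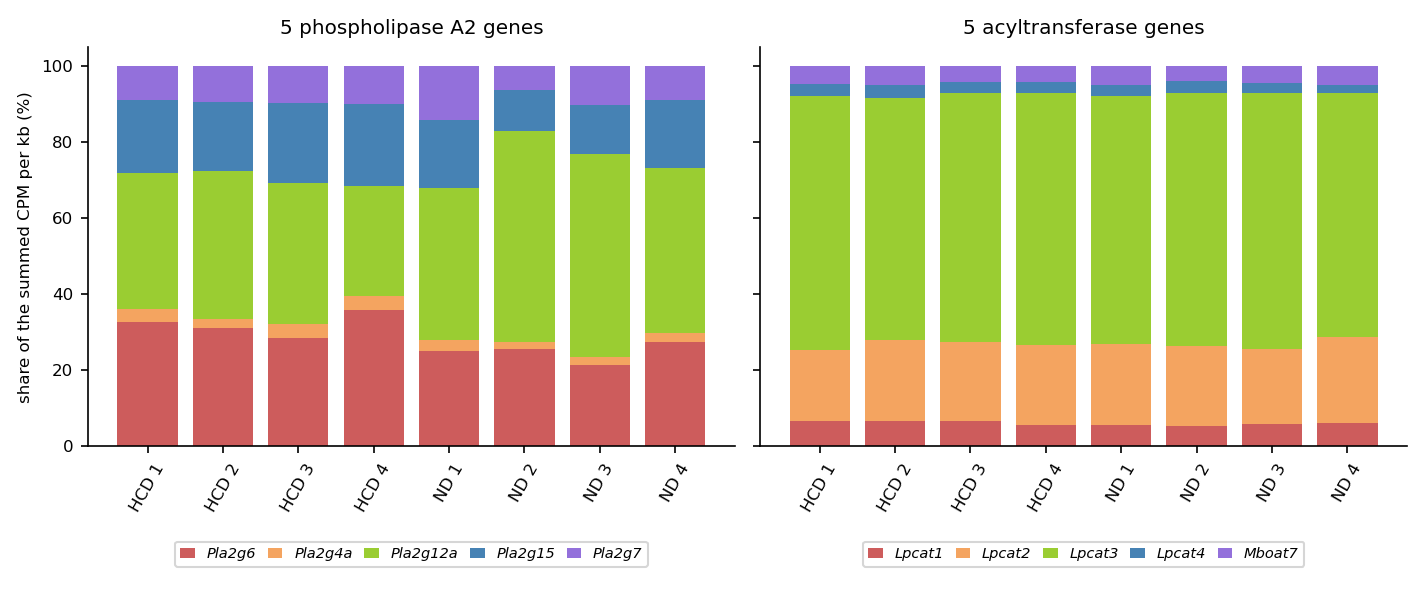
Share of each gene in the summed CPM per kilobase of its family (%, stacked bars, HCD libraries left of ND libraries), phospholipases at left and acyltransferases at right. The Pla2g6 segment spans 28.6 to 35.9% in HCD and 21.4 to 27.4% in ND, and the Lpcat3 segment 63.9 to 66.6% in HCD and 64.0 to 67.25% in ND.

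Macrophages are a known source of Pla2g7, Pla2g15 and Pla2g4a, so their markers are given beside these genes. All 12 macrophage markers were tested, 11 had a higher and 1 a lower estimate in HCD, and 0 were called by edgeR. At an unadjusted p under 0.05, 4 were higher, against 951 of all 13186 genes tested. DESeq2 called 1, where it called 1.53% of all genes it tested higher and 1.88% lower, and limma-voom called 0. The summed level of the macrophage markers was 509.7, 510.0, 661.6 and 530.2 CPM in HCD 1 to HCD 4, against 560.8, 325.5, 375.1 and 435.8 CPM in ND 1 to ND 4 (two-sided exact permutation p = 0.114). HCD 3 was the highest library and ND 2 the lowest, as for Pla2g15 and Pla2g4a, and ND 1 was the highest ND library, as for Pla2g15, Pla2g4a and Pla2g7. This order was not particular to macrophages. Summed endothelial markers were also highest in HCD 3 (93.6 CPM) and lowest in ND 2 (63.05 CPM), with ND 1 the highest ND library (83.5 CPM). The difference of group means was 129 CPM, and 92.4 to 174 CPM with 1 library left out. It was largest without ND 1 (exact permutation p = 0.0286, the lowest value that groups of 4 and 3 can give). No macrophage marker was at 0 in all libraries. Lpcat2, which can make platelet-activating factor chiefly in inflammatory cells, was highest in ND 2 (82.0 CPM), where the summed macrophage markers were lowest. Single markers differed: Cd68 was highest in ND 2 (169.1 CPM). Cd14, Mrc1 and Cd163 were neither highest nor lowest there, and the rest of the list was lowest there. The mean of Lpcat2 was 66.8 CPM in HCD and 75.2 CPM in ND. The part of macrophage content in the levels of Pla2g15, Pla2g4a, Pla2g7 and Lpcat2 was not tested. Pla2g6 lay at 46.4 to 48.9 CPM in HCD and 34.1 to 36.4 CPM in ND, too close within each diet for a library order to be read. The part of macrophage content in its level was not tested either.

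**Figure D5:**
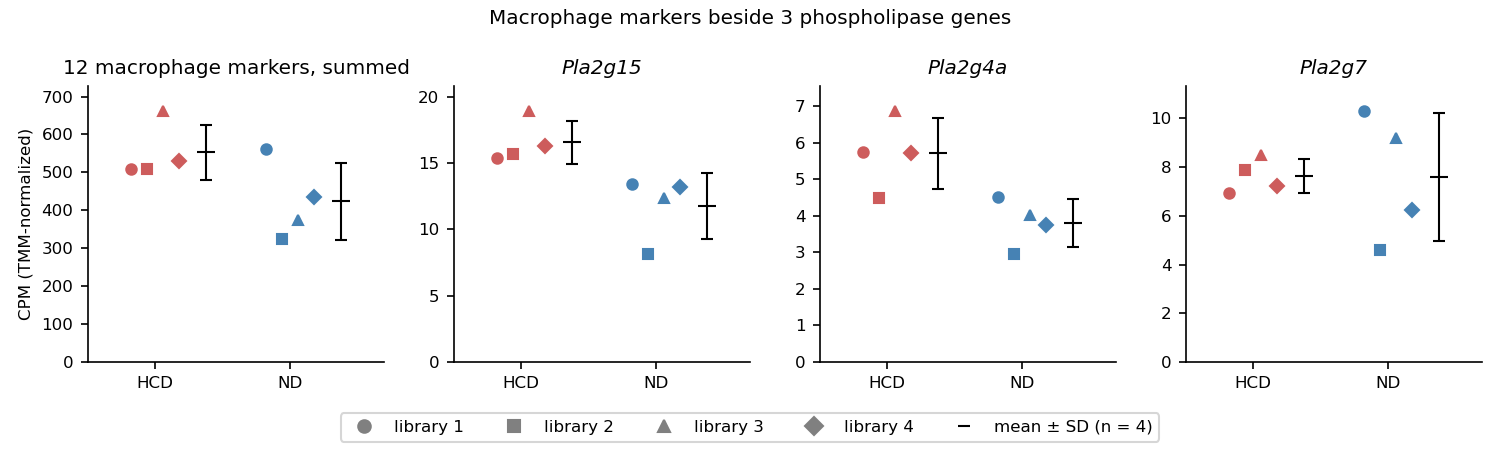
Summed CPM of 12 macrophage markers and CPM of Pla2g15, Pla2g4a and Pla2g7 in each library (axes from 0, HCD left of ND, mean ± SD, n = 4). HCD 3 (triangle) is highest and ND 2 (square) lowest in the marker panel, at 661.6 and 325.5 CPM, and in the Pla2g15 and Pla2g4a panels.

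Other marker lists had 0 genes called by edgeR. Over all 13186 genes tested, 951 were higher and 988 lower at an unadjusted p under 0.05. DESeq2 called 1.53% of the genes it tested higher and 1.88% lower. Endothelial markers (6 of 6 tested, 3 higher at an unadjusted p under 0.05) summed to 85.4 to 93.6 CPM in HCD and 63.05 to 83.5 CPM in ND, without overlap (exact two-sided permutation p = 0.0286). Fibroblast markers (5 of 6 tested) ran from 59.5 to 269.3 CPM in HCD and from 45.0 to 251.4 CPM in ND, and adipocyte markers (1 of 6 tested, 1 higher at an unadjusted p under 0.05) from 9.19 to 43.35 CPM in HCD and from 7.55 to 11.15 CPM in ND. Skeletal muscle markers (4 of 6 tested, 4 lower at an unadjusted p under 0.05, 2 called by DESeq2) summed to 2.06 to 5.02 CPM in HCD and 3.19 to 69.8 CPM in ND, highest in ND 2. Neutrophil markers (1 of 6 tested) summed to 1.702 to 3.39 CPM in HCD and 0.844 to 5.19 CPM in ND, and T cell markers (3 of 6 tested) to 3.40 to 6.48 CPM in HCD and 1.75 to 6.12 CPM in ND. B cell markers (0 of 5 tested) summed to 0.839 to 1.04 CPM in HCD and 0.301 to 2.12 CPM in ND. Keratinocyte markers (0 of 5 tested) reached 0.113 CPM in HCD and 0.114 CPM in ND, with Krt5 at 0 counts in all libraries. The part of these cell types in the levels of the 10 genes was not tested.

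The genes whose pattern over the 8 libraries was most like that of Pla2g6, among 12444 genes with a mean of at least 1 CPM, included Recql5 (Pearson r of log2 CPM 0.985), Rfwd3 (0.983), Cdc6 (0.979) and Ttc37 (0.977). Recql5 is a DNA helicase gene, and Cdc6 loads the replicative helicase at replication origins. Spearman's rho for these 4 genes was 0.714 (Cdc6) to 0.952. These values share the diet difference: with the group means taken off, r was 0.451 for Recql5, 0.777 for Rfwd3, -0.136 for Cdc6 and 0.826 for Ttc37. Within each diet Pla2g6 varied by no more than counting noise would give. So the r left without the group means, and the order within a diet that enters rho, are not read for Pla2g6. For Pla2g7 the most alike genes included Unk (0.971), Bcl3 (0.955), Cd8a (0.943) and Slc25a33 (0.943), and with the group means taken off r was 0.942 to 0.985. Cd8a is a coreceptor gene of cytotoxic T cells and stood at 0.422 to 2.29 CPM. The other T cell markers, also at low levels, did not share 1 order. Cd3e and Cd8b1 were highest in ND 1, as Pla2g7 and Cd8a were. Cd3d and Cd3g were highest in ND 3, and Cd4 was lowest in ND 1 (0.0572 CPM). All genes come from the same 8 libraries, so these correlations describe the libraries and carry no p.

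Around these 10 genes, 127 genes of 7 lists were followed, of which 92 passed the filter. None of the 92 was called by edgeR, with 6 higher and 8 lower at an unadjusted p under 0.05, against 14.7% of all tested genes in either direction. DESeq2, which gave 85 of them an adjusted p, called 2 higher (Lpgat1 and Selenoi) and 1 lower (Chka), near its shares of 1.53% higher and 1.88% lower over all genes, and limma-voom called 0. Groups did not overlap for 2 genes higher and 3 lower in HCD, against 4.94% and 4.73% of all tested genes, so these counts lie near the background. The median log2 fold change over the 92 was 0.03, against 0.00 over all genes tested. The medians of single lists given next lay near 0, and several turned sign with 1 library left out or with the ND 2-4 term.

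The other phospholipase A2 genes numbered 23, of which 11 were tested (6 with a higher and 5 with a lower estimate, 0 called, 0 at an unadjusted p under 0.05, median log2 fold change 0.01). Pafah1b1 and Pafah1b2, subunits of an intracellular hydrolase of platelet-activating factor, had means of 89.8 and 131 CPM in HCD, against 78.3 and 122 CPM in ND (edgeR adjusted p = 0.534 and 0.579). The secreted enzyme gene Pla2g5 stood at 1.21 ± 0.660 CPM in HCD and 0.819 ± 0.200 CPM in ND, and the cytosolic enzyme gene Pla2g4b at 0.643 ± 0.501 CPM in HCD and 1.12 ± 0.217 CPM in ND. The other 12 genes fell below the filter, and Pla2g2a, Pla2g2c, Pla2g2f, Pla2g10, Pla2g4d, Hrasls and Hrasls5 had 0 counts in all 8 libraries. A count of 0 allows up to 3 counts, or 0.169 to 0.205 CPM depending on the library, for counting error only. The list of 7 patatin-like phospholipases had 4 tested members, 1 higher and 3 lower, 0 called and 0 at an unadjusted p under 0.05 (median -0.06). They were Pnpla6, the neuropathy target esterase gene (13.5 CPM in HCD, 15.4 CPM in ND), Pnpla7 (18.8 CPM in HCD, 17.5 CPM in ND), the triglyceride lipase gene Pnpla2 (54.0 CPM in HCD, 56.7 CPM in ND) and Pnpla8 (56.2 CPM in HCD, 58.1 CPM in ND).

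Of 14 other acyltransferases 13 were tested, 9 with a higher and 4 with a lower estimate and 0 called by edgeR (3 higher and 2 lower at an unadjusted p under 0.05, median 0.13). Lpgat1, an acyltransferase first described for lysophosphatidylglycerol, had 77.7, 72.0, 74.3 and 76.2 CPM in HCD 1 to HCD 4, against 64.0, 62.4, 63.2 and 65.3 CPM in ND 1 to ND 4. The groups did not overlap and the spread within each was small (log2 fold change 0.24, SE 0.0615, edgeR adjusted p = 0.129). Agpat4 makes phosphatidic acid from lysophosphatidic acid. Its level was lower without overlap, at 12.5 ± 1.54 CPM in HCD and 16.2 ± 0.863 CPM in ND (log2 fold change -0.37, edgeR adjusted p = 0.182). Agpat1, of the same step, stood at 93.9 ± 6.84 CPM in HCD and 77.0 ± 10.1 CPM in ND, and Mboat2 at 81.0 ± 4.83 CPM in HCD and 92.8 ± 7.13 CPM in ND, both with overlap.

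Phospholipid synthesis had 23 genes, 22 of them tested, 10 with a higher and 12 with a lower estimate and 0 called by edgeR (3 higher and 4 lower at an unadjusted p under 0.05, median -0.03). Chka, the choline kinase that opens phosphatidylcholine synthesis, had 14.8, 17.3, 24.3 and 21.7 CPM in HCD 1 to HCD 4, against 30.95, 26.4, 26.8 and 27.1 CPM in ND 1 to ND 4. All HCD libraries were below all ND libraries (log2 fold change -0.51, SE 0.149, edgeR adjusted p = 0.164, DESeq2 adjusted p = 0.0459, range over alternatives 0.0459 to 0.370). Selenoi, which completes phosphatidylethanolamine, was higher without overlap, at 26.7 ± 3.25 CPM in HCD and 19.2 ± 2.28 CPM in ND (log2 fold change 0.48, edgeR adjusted p = 0.122, DESeq2 adjusted p = 0.0236, range over alternatives 0.0236 to 0.368). The genes Pcyt1b (28.4 ± 3.17 CPM in HCD, 35.7 ± 3.05 CPM in ND) and Pcyt2 (54.3 ± 6.82 CPM in HCD, 68.4 ± 8.67 CPM in ND) for the CDP-choline and CDP-ethanolamine steps, had lower means in HCD with overlap.

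Pcyt1a, the enzyme that limits the rate of phosphatidylcholine synthesis, was added after its values were seen. It had 111.0, 115.8, 121.7 and 117.9 CPM in HCD 1 to HCD 4, against 50.1, 47.5, 130.5 and 53.9 CPM in ND 1 to ND 4. ND 3 stood with the HCD libraries, and the 3 other ND libraries lay below them by over 50 CPM. The log2 fold change was 0.73 (edgeR adjusted p = 0.287), 1.22 with the ND 2-4 term (edgeR adjusted p = 0.3945) and 1.21 without ND 3 (edgeR adjusted p = 0.00085, range over alternatives 0.00085 to 0.478), the only fit with 1 library left out that called a gene of these lists.

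The list of 22 lysophospholipases and phospholipases A1, B and D had 18 tested members, 11 with a higher and 7 with a lower estimate and 0 called by edgeR (0 higher and 1 lower at an unadjusted p under 0.05, DESeq2 0 and limma-voom 0, median 0.06). Gpcpd1, which hydrolyses glycerophosphocholine, had 18.3 ± 2.18 CPM in HCD and 22.6 ± 1.28 CPM in ND without overlap (edgeR adjusted p = 0.234). The phospholipase A1 gene Ddhd1 averaged 25.7 CPM in HCD and 28.6 CPM in ND, with overlap. Plbd1 averaged 8.07 CPM in HCD and 5.99 CPM in ND, and Pla1a 1.74 CPM in HCD and 1.33 CPM in ND, also with overlap.

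Genes that use arachidonate or make eicosanoids numbered 20, with 16 tested, 7 with a higher and 9 with a lower estimate and 0 called by edgeR (1 lower at an unadjusted p under 0.05, median -0.02). Hpgds, a prostaglandin D synthase gene, had 35.5 ± 2.42 CPM in HCD and 41.2 ± 4.23 CPM in ND, with overlap. Alox5ap, the partner of 5-lipoxygenase, stood at 8.79 ± 2.01 CPM in HCD and 6.10 ± 1.76 CPM in ND, Tbxas1, thromboxane synthase, at 5.57 ± 0.857 CPM in HCD and 4.15 ± 1.67 CPM in ND, and Alox12 at 0.888 ± 0.726 CPM in HCD and 0.349 ± 0.239 CPM in ND. Alox5ap and Tbxas1 were lowest in ND 2, as the summed macrophage markers were, though not each single marker. Receptors for lipid mediators numbered 18, with 8 tested, 6 with a higher and 2 with a lower estimate and 0 called or at an unadjusted p under 0.05 (median 0.08). The lysophosphatidic acid receptor genes Lpar2 and Lpar6 had means of 15.5 and 6.15 CPM in HCD, against 13.0 and 5.14 CPM in ND. Cysltr1, a leukotriene receptor gene, stood at 1.12 CPM in HCD and 0.746 CPM in ND, and Gpr4, a proton-sensing receptor gene, at 1.25 CPM in HCD and 1.41 CPM in ND.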

How the data were processed

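Total RNA was extracted on RNeasy columns and sequenced as TruSeq RNA paired-end libraries, per the labels' protocols. Tools named, without roles or order, in the submitters' processing notes were edgeR, HTSeq, TopHat2 2.0.9 and CASAVA 1.8, and the build was mm10. Not given in the sources used here were the annotation release and the strand setting. The deposited files hold, per the file headers, raw counts per Ensembl gene and FPKM by the authors. As the values show, FPKM were scaled to gene length and to summed counts.

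Of 34745 genes, 34267 matched a symbol in GENCODE mouse M21 (GRCm38) and 478 did not. Counts of all 8 libraries were fitted with edgeR 4.0.16 (limma 3.58.1, R 4.3.3; quasi-likelihood F-test, TMM factors, minimum count 10, minimum total 15, diet as the only term) on 13186 genes, with Benjamini-Hochberg adjustment over all of them and a threshold of 0.05. The common biological coefficient of variation was 17.2%. The fit was tested on simulated data. CPM are TMM-normalized, and log2 values use a prior count of 2. Library totals and marker sums were tested by exact permutation, two-sided. Promoter windows come from RefSeq (GRCm38.p6). Chi-square over degrees of freedom was 14.5 to 37.6 between libraries of a group, where sampling noise gives 1. That is more than repeat sequencing of 1 library gives, and each library was counted as 1 sample. This value cannot tell separate mice from separate pieces or preparations of 1 tumour.

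The 10 genes, 7 pathway lists and 10 marker lists were chosen with earlier results of these data known. Named were the 10 genes, the up to 4 tested genes with the smallest p in each pathway list, and the 5 genes most correlated with Pla2g6 and with Pla2g7, of which 1 each is not reported here. Pcyt1a was added later. Alternatives were RLE and upper-quartile factors, no expression filter, DESeq2 1.42.0, limma-voom, robust dispersion, the replicate number as a block, a term for ND 2, ND 3 and ND 4 (the ND 2-4 term), no mitochondrially encoded genes, and each library left out. The level order was also taken by the median, within each diet and, chosen after seeing the data, per kilobase of exon union. Likeness was also taken by Spearman's rho and with group means taken off.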

Additional observations from a re-analysis of the deposited data

Results flagged for a closer look

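In groups of 4 libraries, values were checked for 1 library far from the other 3 of its group, its gap to the nearest of them taking nearly all of the group's range (Dixon's test at the 95% level). Of 118 groups checked (genes named above and library measures, in each diet), 12 had such a library, where chance gives about 1 in 20 for independent groups. These groups share the same 8 libraries, and Pcyt1a was added after its values were seen, so the 12 are not read as an excess. None of the 12 was a level of the 10 genes themselves. In phospholipid synthesis Pcyt1a was at 130.5 CPM in ND 3, the highest of its group, Chka at 30.95 CPM in ND 1 and Pcyt2 at 64.5 CPM in HCD 3, each the highest of its group. Among the lipases and eicosanoid genes, Plbd1 was highest in HCD 1 (9.77 CPM), Alox12 was highest in HCD 3 (1.961 CPM) and Alox5ap was lowest in ND 2 (3.50 CPM). The receptor gene Gpr4 was highest in HCD 2 (1.76 CPM). Of the genes most like Pla2g7, Unk was lowest in HCD 4 (41.1 CPM). Among library measures, the summed macrophage markers were highest in HCD 3 (661.6 CPM), the fibroblast markers lowest in HCD 4 (59.5 CPM) and the keratinocyte markers highest in HCD 4 (0.113 CPM, near the level of 1 or 2 counts). The number of genes with a count was lowest in ND 1 of its group, at 16745.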

How the results depend on the processing

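The direction of Pla2g6, Pla2g4a, Pla2g12a, Pla2g15, Lpcat1, Lpcat2, Lpcat3 and Mboat7 was the same in all 17 fits, and Pla2g6 kept its call in 7 of them (both scalings, no filter, DESeq2, limma-voom, robust dispersion, no mitochondrial genes). The Pla2g6 log2 fold change was 0.49 with the ND 2-4 term (adjusted p = 0.339) and 0.42 to 0.45 with 1 library left out (adjusted p from 0.0718 to 0.138), all without a call, so the number of the 10 genes called was 0 in each; the cause was not tested. No label says that the replicate numbers pair the samples, and correlations between so few samples cannot settle it. Same-number r of deviations ran from -0.068 to 0.107, with 0 HCD libraries most like their own number. For HCD 4 this was close, with r = 0.107 to ND 4 and 0.108 to ND 3. With the replicate block Pla2g6 was at 0.435 (edgeR adjusted p = 0.206), 0 of the 10 genes were called, and 0 genes were called in either direction over all genes. Over all genes, 9 higher and 15 lower calls became 38 and 55 with no filter, 191 and 236 with DESeq2, 24 and 26 with robust dispersion, 4 and 1 with the term, and 0 to 6 in each direction with 1 library left out. Pathway genes had 2 higher and 1 lower call with DESeq2 and 0 to 1 higher with 1 library left out. Estimates turned sign for Pla2g7 (-0.43 with the term, -0.17 to 0.19 with 1 library left out, negative without HCD 2, HCD 3, ND 2 or ND 4), Lpcat4 (-0.040 to 0.18 with 1 left out, negative without ND 4), Pnpla7 (-0.23 with the term, -0.028 to 0.23 with 1 left out), Pnpla2 (-0.16 to 0.042 with 1 left out) and Pnpla8 (0.27 with the term, -0.15 to 0.049 with 1 left out). With the term they also turned for Plbd1 (-0.33), Tbxas1 (-0.068), Cysltr1 (-0.11) and Gpr4 (0.057), and the likeness of Cdc6 to Pla2g6 with the group means taken off (r = -0.136). None of these was called. List medians moved too. With the term they were -0.29 for the patatin-like genes, -0.048 for the lysophospholipases and -0.13 for phospholipid synthesis, and below 0 for the receptors. With 1 library left out they ran from -0.10 to 0.074 for the other phospholipase A2 genes, -0.036 to 0.078 for arachidonate use, 0.019 to 0.29 for the receptors (highest without ND 3) and -0.057 to 0.056 for the 10 genes. The level order moved 2 genes by the median or in HCD alone, 5 in ND alone and 4 per kilobase of exon union. The macrophage difference was 92.4 to 174 CPM with 1 library left out (174 CPM without ND 1, exact permutation p = 0.0286), and genes with a count differed by -1620 to -1130. For genes with a count the exact permutation p rose to 0.0571 without HCD 1, HCD 2, HCD 3 or HCD 4. Limits are the 4 samples per diet and, for Pla2g4a, Pla2g7 and Lpcat4, at most 180 counts per library.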
